A study of Rattus norvegicus with 939 samples.

Results

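The genes considered here are 9 hepatic apolipoproteins, Apoa1, Apoa2, Apoa4, Apoa5, Apob, Apoc3, Apoe, Apoh and Apom, and Mttp, the microsomal triglyceride transfer protein. They were taken by name from the platform annotation, and each gene was represented by its probe set with the highest mean signal, so that 10 of 14218 genes were followed. Apob is the structural protein of very low density lipoprotein (VLDL), the particle in which the liver exports triglyceride, and Mttp loads lipid onto the growing Apob chain in the endoplasmic reticulum, without which the particle is not secreted. Apoa1 and Apoa2 are the main proteins of high density lipoprotein (HDL), Apoc3 inhibits lipoprotein lipase and Apoa5 assists it, Apoe is the ligand by which remnant particles are taken up, Apoa4 is a protein of chylomicrons and HDL, Apom carries sphingosine 1-phosphate on HDL, and Apoh is a phospholipid-binding plasma glycoprotein.

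The data were 939 microarrays of cultured primary rat hepatocytes, 826 exposed to one of 125 compounds and 113 exposed to the vehicle alone, which was DMSO for every array. Exposures lasted 0.67 d (436 arrays) or 1 d (503 arrays), 272 of the 275 treated groups held 3 arrays, and 17 sets of vehicle controls each named in their description the compounds they belonged to. Hybridization days fell into 5 campaigns: campaign 1 (120 compounds in 123 compound and dose combinations), campaign 2 (4 kinase inhibitors), campaign 3 (cerivastatin), campaign 4 (chlorpromazine again) and campaign 5 (6 compounds at 3 doses, 1 d only). The labels gave no strain, sex or age of the donor animals, and did not say whether the replicate arrays of a treated group came from separate cultures, so that p-values measure the spread between these arrays only.

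Values were log2 signals, on which 1 unit is a doubling, and a gene was called when its adjusted p was 0.01 or less and its difference was at least 1.5-fold in limma's test of treated arrays against the matched controls. Array medians lay between 5.41 and 5.73, and albumin, at a mean of 14.35, stood at the top of the scale. In the 104 vehicle arrays of campaigns 1 to 3 the 11 measured hepatocyte markers had a mean log2 signal of 11.99, above 99.1% of genes at their median, whereas the means were 6.31 for 8 Kupffer cell markers, 5.44 for 6 endothelial markers, 5.36 for 5 cholangiocyte markers, 6.02 for 7 stellate cell markers and 7.18 for 4 enterocyte markers. Several arrays went against their labels. In campaign 5 the replicate 2 arrays of methapyrilene had 1637, 34 and 41 genes at least 2-fold away from the control mean at 100, 300 and 500 µM, against 190 to 1730 in the other replicates and in rising order with dose there. In campaign 1, replicate 1 of clofibrate at 0.67 d and replicate 1 of gemfibrozil at 1 d each stood apart from the other arrays of their group. Results resting on these arrays are given with and without them.

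All 10 genes were expressed in the vehicle-treated hepatocytes, and Apob and Mttp were the members that left the control range most often. Mttp lay below every vehicle array of campaigns 1 to 3 in 416 of the 826 treated arrays of all campaigns and Apob in 374, against 104 for Apoe, 102 for Apoc3, 77 for Apoa5, 67 for Apoa2, 66 for Apom, 43 for Apoh, 41 for Apoa1 and 5 for Apoa4. Arrays above every vehicle array numbered 61 for Mttp, 37 for Apoh, 33 for Apoa4, 21 for Apoa5, 18 for Apob and at most 12 for any other member. Over all genes 5.95% of the values in treated arrays lay below every vehicle array and 6.92% above, against 15.7% and 2.42% for the members, and the median gene was below in 14 arrays and above in 25. More arrays lay below for Mttp than for 99.5% of genes, and for Apob than for 99.0%. The vehicle arrays themselves (lowest, median and highest of 104) read 11.37, 12.28 and 12.97 for Apob and 8.00, 9.02 and 9.67 for Mttp. Those of the HDL proteins read 11.92, 12.82 and 13.28 for Apoa1, 10.95, 11.99 and 12.88 for Apoa2 and 9.09, 10.02 and 10.87 for Apom, and those of the lipase regulators 8.52, 9.47 and 10.25 for Apoa5 and 12.97, 13.36 and 13.63 for Apoc3. Apoe (13.59, 13.76 and 13.91), Apoh (12.62, 13.04 and 13.27) and Apoa4 (11.78, 12.68 and 13.14) complete the list. The vehicle arrays of Apob, Apoa1, Apoa2, Apoa4, Apom, Apoa5 and Mttp thus ranged over more than 1 log2 unit, and those of Apoc3, Apoe and Apoh over less than 1. The spread within a control set and time, as an SD, was 0.23 for Apob and 0.31 for Mttp, between 0.23 and 0.35 for Apoa1, Apoa2, Apoa4, Apoa5 and Apom, and smaller for Apoh (0.10), Apoc3 (0.09) and Apoe (0.06). The probe sets of Apoe and Apoc3 read 0.59 and 1.00 log2 below the median array maximum in vehicle arrays. The distance was 1.32 for Apoh, 1.55 for Apoa1, 1.70 for Apoa4, 2.09 for Apob and 2.39 for Apoa2. It was 4.32 for Apom, 4.87 for Apoa5 and 5.39 for Mttp. The part of this distance in the narrow ranges of some members was not tested.

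Regulatory sequence was at hand for some members. RefSeq promoters (GRCr8, the 250 bases before an annotated start) were held for 5 of the 10, Apoa4, Apoa5, Apoe, Apoh and Apom, and Apoa1, Apoa2, Apob, Apoc3 and Mttp are named only. Of the sequences shown, Apoa5 and Apom belong to members called with several compounds, Apoa4 to a member called with none and Apoc2 to the gene whose changes most resembled those of Apom. Capitals mark AGGTCA or GGGTCA, the 6-base core that nuclear receptors recognise, and TATAAA, the TATA box, each searched on both strands.
Apoa5 (chr8:55457621-55457870, plus strand): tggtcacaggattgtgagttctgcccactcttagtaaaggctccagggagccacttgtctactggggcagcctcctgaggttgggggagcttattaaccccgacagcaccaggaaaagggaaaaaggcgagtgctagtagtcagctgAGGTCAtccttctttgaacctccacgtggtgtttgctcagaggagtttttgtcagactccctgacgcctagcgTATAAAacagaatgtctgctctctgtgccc
Apom (chr20:3695368-3695617, plus strand): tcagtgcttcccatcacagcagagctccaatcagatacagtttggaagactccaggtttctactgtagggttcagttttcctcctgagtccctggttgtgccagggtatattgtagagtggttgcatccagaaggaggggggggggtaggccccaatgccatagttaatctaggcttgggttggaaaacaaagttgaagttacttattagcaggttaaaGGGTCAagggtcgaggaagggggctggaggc
Apoa4 (chr8:55435529-55435778, plus strand): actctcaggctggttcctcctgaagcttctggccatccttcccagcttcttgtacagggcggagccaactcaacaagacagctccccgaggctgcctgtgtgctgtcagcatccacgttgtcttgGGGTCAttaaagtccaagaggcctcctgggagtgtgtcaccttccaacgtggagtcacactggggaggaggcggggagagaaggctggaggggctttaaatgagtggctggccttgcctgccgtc
Apoc2 (chr1:88462366-88462615, minus strand): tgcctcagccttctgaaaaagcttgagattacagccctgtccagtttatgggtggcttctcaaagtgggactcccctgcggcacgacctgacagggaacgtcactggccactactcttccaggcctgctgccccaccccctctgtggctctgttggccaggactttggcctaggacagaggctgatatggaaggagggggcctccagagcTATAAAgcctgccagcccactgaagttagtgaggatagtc
The match in Apoa5 began 103 bases before the start, followed by a TATAAA 30 bases before it; the second annotated start of Apoa5 held the same TATAAA and no core. In Apom and Apoa4 a GGGTCA began 31 and 125 bases before the start, and Apoc2 held a TATAAA 40 bases before it. Among 33469 rat promoters of this length 14.1% held AGGTCA, 11.9% GGGTCA, 23.9% either of them and 12.9% TATAAA, so that a match is a description of the letters only.

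To ask which compounds changed lipoprotein genes, each of the 123, 4 and 1 compound and dose combinations of campaigns 1, 2 and 3 was set against its matched controls with correction for exposure time. Apob and Mttp were down-regulated with more than 1 in 2 of the combinations: Mttp was called lower with 79 and higher with 6, and Apob lower with 72 and higher with 3. Apom (18 lower, 1 higher), Apoa2 (14 lower, 1 higher), Apoa5 (14 lower, 2 higher) and Apoa1 (11 lower, 0 higher) followed, Apoc3 was called lower with 3, and Apoa4, Apoe and Apoh were called with none when all arrays were included. Over the 1280 tests of the 10 genes 16.5% were called lower and 1.02% higher, beside 4.92% lower and 3.67% higher over all genes (8.59% in either direction), and 6.38% lower and 5.40% higher over genes with a mean signal at or above that of Mttp, the lowest member. Most of the excess lay in Apob and Mttp, since the other 8 members had 60 lower calls (5.86%) and 4 higher calls (0.391%) in 1024 tests. The parts of fewer hepatocytes and of less RNA of a gene per hepatocyte in these decreases were not tested. Lower calls of the 11 hepatocyte markers ranged from 0 combinations (Alb, Serpina1 and Hpx) to 76 (Cps1).

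**Figure D1:**
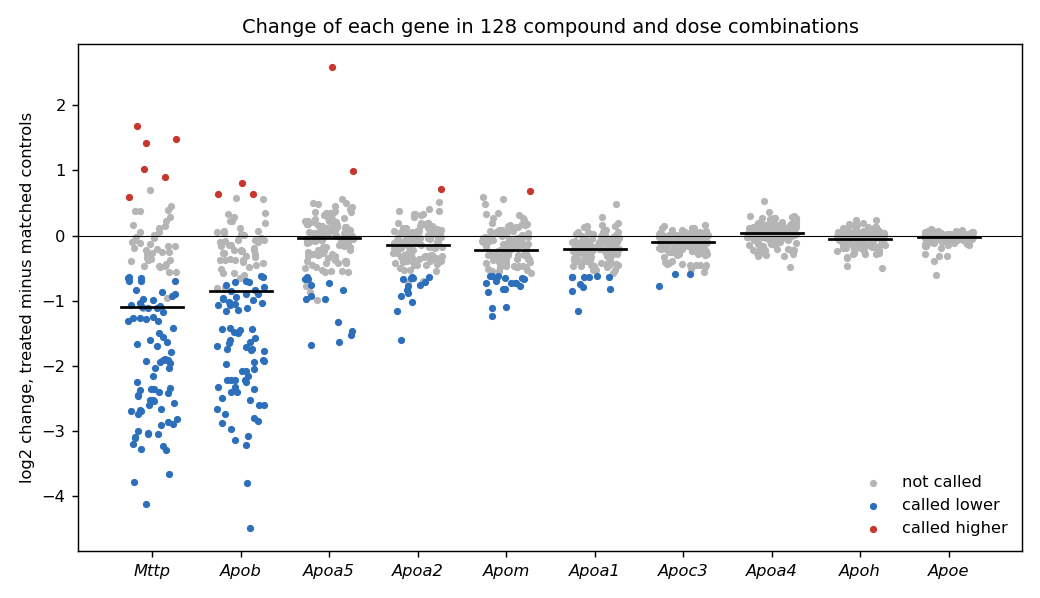
Log2 change (y axis) of each member with each compound and dose combination of campaigns 1 to 3 against the matched vehicle controls, one column of points per gene, with called values coloured by direction and a line at each median. Apob and Mttp spread down to -4.48 and -4.12, while every Apoe, Apoh and Apoa4 value stayed within 0.60 of 0 and was not called with all arrays included (Apoe with gemfibrozil was at -0.74 and called without the array that stood apart).

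The median change was -1.10 for Mttp and -0.84 for Apob on the log2 scale, against medians between -0.22 and 0.04 for the other members. The middle part of the values, from the lower to the upper quartile, ran from -2.35 to -0.26 for Mttp and from -1.91 to -0.22 for Apob. Called decreases of at least 2-fold were found with 67 combinations for Mttp and 57 for Apob, and of at least 4-fold with 39 and 29, whereas no other member fell 4-fold and Apoa5, with 5 combinations, had the most 2-fold decreases among them. The Apob sizes are those of its chosen probe set. A second Apob probe set, which read 6.50 in vehicle arrays, was 2-fold lower in none of the combinations. The treated and vehicle arrays did not overlap at either time in 69 of the 79 lower calls of Mttp and 63 of the 72 of Apob, against 9 of 14 for Apoa5, 7 of 18 for Apom, 5 of 11 for Apoa1, 4 of 14 for Apoa2 and 2 of 3 for Apoc3. Over all genes 75.7% of lower calls were apart in this way, against 75.4% for the members together, 87.3% for Mttp and 87.5% for Apob, and of lower calls of at least 2-fold, which make up most of those of Mttp and Apob, 84.7% were apart over all genes and 89.7% for the members.

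Every combination that lowered Apob also lowered Mttp: the 72 calls they shared were 100% of those of Apob and 91.1% of those of Mttp. Broad responses were among these, as with vinblastine, lomustine and ifosfamide, where 17.1%, 15.6% and 15.4% of all genes were lower. How many lower calls other pairs of genes shared was not counted. The overlap is therefore a count only and not read as a link between Apob and Mttp. Mttp alone was called lower with 7 compounds: ceramide C2, diethylstilbestrol, griseofulvin, lithocholic acid, marimastat, sporidesmin A and streptozotocin. The Apob changes, in the same order, were -0.57, -0.57, -0.10, -0.60, -0.31, -0.49 and -0.80. The widest gap among these was with sporidesmin A, a fungal toxin, at 0.15 µM, where Mttp changed by -2.82 and Apob, which was not called, by -0.49. Both genes were called higher with 3 compounds (fenofibrate, valproic acid and cytochalasin B). Mttp alone was called higher with chlorambucil, simvastatin and sulindac, where Apob changed by 0.58, 0.57 and 0.29. Neither was called with 43 combinations, and with none were they called in opposite directions. The Mttp change was the lower of the pair in 92 combinations; the difference between the genes was not tested. Pearson's r between their changes was 0.93 over all combinations, many of which share control arrays.

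**Figure D2:**
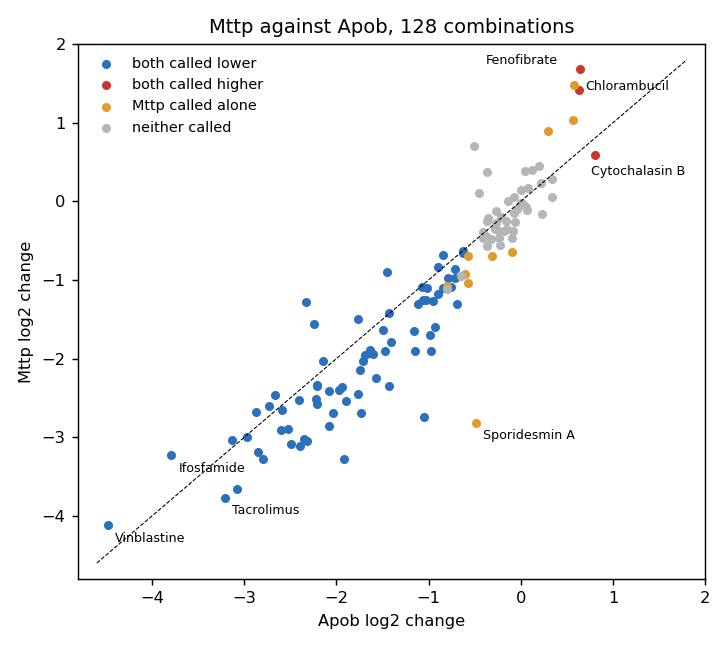
Mttp log2 change (y axis) against Apob log2 change (x axis) for all combinations of campaigns 1 to 3, coloured by which gene was called, with the dashed line marking equal changes. Sporidesmin A stands below the line at -2.82 for Mttp and -0.49 for Apob, and most points in the lower range lie below the line as well.

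The deepest decreases of both genes came with vinblastine, which disrupts microtubules, at 45 µM. Apob read 7.50, 8.56 and 9.08 at 0.67 d and 6.71, 6.85 and 8.40 at 1 d in vinblastine arrays, against 12.09 to 12.46 (median 12.29, n = 8) at 0.67 d and 12.09 to 12.57 (median 12.42, n = 8) at 1 d in vehicle arrays. Mttp read 4.53, 5.09 and 5.32 at 0.67 d and 4.12, 4.43 and 5.00 at 1 d with vinblastine, against 8.48 to 9.15 (median 8.68) and 8.62 to 9.21 (median 9.08) with vehicle. All 6 treated arrays lay more than 3 log2 units below all vehicle arrays in either gene. The changes were -4.48 (SE 0.22, limma adjusted p = 5.06e-14) for Apob, a 22.4-fold decrease in its chosen probe set, and -4.12 (SE 0.15, adjusted p = 3.14e-16) for Mttp, a 17.4-fold decrease.

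After vinblastine the largest Apob decreases were those with ifosfamide, a DNA-alkylating prodrug, at 11000 µM (-3.79, SE 0.12, limma adjusted p = 3.08e-25) and with tacrolimus, a calcineurin inhibitor, at 50 µM (-3.21, SE 0.15, adjusted p = 2.07e-09). Apob read 8.55, 8.76 and 9.09 at 0.67 d and 7.75, 8.10 and 8.41 at 1 d with ifosfamide, against 11.53 to 12.49 and 11.71 to 12.57 in 16 vehicle arrays at each time. For Mttp the next decreases were those with tacrolimus (-3.77, SE 0.19), whose arrays read 5.10, 5.11 and 5.33 at 0.67 d and 4.36 and 4.83 at 1 d, and with valdecoxib, a cyclooxygenase-2 inhibitor, at 450 µM (-3.66, SE 0.17). Treated and vehicle arrays were apart at both times for each of these.

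Increases were few and concerned Mttp more than Apob. With fenofibrate, a PPARα agonist and lipid-lowering drug, at 250 µM, Mttp read 10.46, 10.57 and 10.59 at 0.67 d and 10.43, 10.52 and 10.59 at 1 d, against 8.00 to 9.15 (median 8.75, n = 11) and 8.62 to 9.27 (median 9.03, n = 11) with vehicle. The treated arrays lay wholly above the controls, a rise of 1.68 (SE 0.11, 3.20-fold, limma adjusted p = 1.56e-12). Apob rose by 0.64 (SE 0.07) with the same compound, from 6 arrays between 12.83 and 13.08 against 22 vehicle arrays between 12.09 and 12.58. Valproic acid, an anticonvulsant and histone deacetylase inhibitor, at 1000 µM gave Mttp readings of 10.26, 10.50 and 10.51 at 0.67 d and 10.36, 10.63 and 10.84 at 1 d, against 8.45 to 9.67 and 8.86 to 9.54 with vehicle, a rise of 1.42 (SE 0.14), and Apob rose by 0.64 (SE 0.09). Both Apob rises were near the 1.5-fold bound and fell under it without replicate 2 (0.58 with fenofibrate and 0.55 with valproic acid). Chlorambucil, an alkylating agent, at 1540 µM raised Mttp by 1.48 (SE 0.19; 1.34 and adjusted p = 0.0168 without replicate 3), and simvastatin at 160 µM raised it by 1.03 (SE 0.14) with groups that overlapped at 0.67 d only. Cytochalasin B, an inhibitor of actin polymerization, at 167 µM gave the largest Apob increase: 12.65, 12.77 and 13.22 at 0.67 d and 13.29, 13.32 and 13.54 at 1 d, against 12.09 to 12.46 and 12.09 to 12.57 with vehicle, a rise of 0.80 (SE 0.09, adjusted p = 8.68e-07). Its Mttp rise of 0.59 lost its call with hybridization day as a block (0.43, adjusted p = 0.155).

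**Figure D3:**
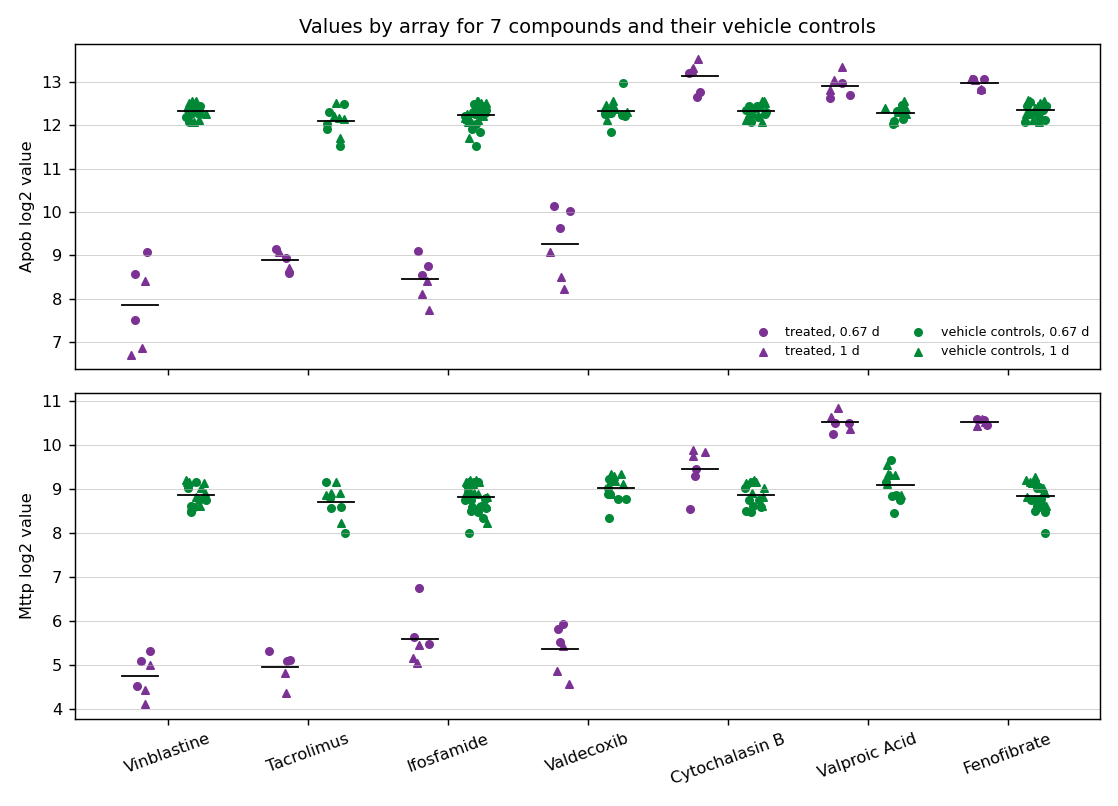
Log2 signal of single arrays (y axis) for Apob (upper panel) and Mttp (lower panel) with 7 compounds (x axis) of their largest called changes, treated arrays drawn to the left of their vehicle controls, circles for 0.67 d, triangles for 1 d and lines at the means. The vinblastine arrays, at 6.71 to 9.08 for Apob and 4.12 to 5.32 for Mttp, lie below all of their controls, and the fenofibrate arrays of Mttp, at 10.43 to 10.59, above theirs.

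Of the genes acting on triglyceride clearance, Apoa5 had the widest range after Apob and Mttp. Doxofylline, a xanthine bronchodilator, at 13500 µM gave Apoa5 readings of 11.82, 11.90 and 12.34 at 0.67 d and 12.07, 12.20 and 12.36 at 1 d, against 9.56, 9.64 and 9.73 and 9.32, 9.43 and 9.49 with vehicle. The 6 treated arrays were more than 2 log2 units above the 6 controls, a rise of 2.59 (SE 0.11, 6.01-fold, limma adjusted p = 3.12e-09), the largest called rise of any member, while Apob (-0.72) and Mttp (-0.98) were lower in the same arrays. Zidovudine, a nucleoside antiviral, at 14800 µM raised Apoa5 by 0.99 (SE 0.18), with groups that overlapped at both times. Isotretinoin, a retinoid, at 500 µM gave 8.04, 8.05 and 8.27 at 0.67 d and 7.57, 7.60 and 7.65 at 1 d, against 9.47 to 9.82 and 9.39 to 9.50 in 4 vehicle arrays at each time, without overlap (-1.67, SE 0.08, adjusted p = 1.27e-10). Valeric acid at 23000 µM (-1.64, SE 0.14) and vinblastine (-1.53, SE 0.22) came next. Apoc3, the lipase inhibitor, was called lower with doxepin (-0.78, SE 0.07), vinblastine (-0.59, SE 0.10) and ethinylestradiol (-0.59, SE 0.06). With doxepin, a tricyclic antidepressant, at 132 µM it read 12.50, 12.61 and 13.01 at 0.67 d and 12.27, 12.32 and 12.77 at 1 d, against 13.18 to 13.50 and 13.10 to 13.40 with vehicle, so that the groups did not overlap.

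Among the HDL proteins, all called changes of Apoa1 were decreases, the largest with vinblastine (-1.15, SE 0.20), tacrolimus (-0.86, SE 0.10) and tetracycline (-0.81, SE 0.11). With vinblastine it read 11.05, 12.10 and 12.42 at 0.67 d and 10.26, 11.56 and 12.21 at 1 d, against 12.41 to 13.11 and 12.36 to 12.95 with vehicle, so that the highest treated array overlapped the controls at 0.67 d and the groups were apart at 1 d. Apoa2 fell most with doxepin, where it read 10.25, 10.58 and 11.36 at 0.67 d and 9.69, 10.04 and 11.02 at 1 d, against 11.40 to 12.67 and 11.21 to 12.47 with vehicle (-1.61, SE 0.20, limma adjusted p = 6.35e-07). These groups did not overlap, but with hybridization day as a block the decrease was -1.04 and its adjusted p 0.0334. The 1 rise of Apoa2 was with cisplatin, a DNA-crosslinking drug, at 63 µM (0.72, SE 0.21, adjusted p = 0.00855), from arrays that overlapped the controls, and it also lost its call under that block (0.65, adjusted p = 0.0213).

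Apom, the sphingosine 1-phosphate carrier, read 8.46, 9.27 and 9.83 at 0.67 d and 8.19, 8.26 and 9.51 at 1 d with doxepin, against 9.59 to 10.72 and 9.34 to 10.53 with vehicle, an overlap at both times (-1.23, SE 0.20; -0.75 and adjusted p = 0.158 with hybridization day as a block). Its 1 rise was with lomustine, a nitrosourea, at 560 µM: 10.47, 10.57 and 10.67 at 0.67 d and 10.35, 10.44 and 10.70 at 1 d, against 9.09, 9.91, 10.06 and 10.17 and 9.72, 9.91, 9.96 and 10.02 with vehicle. Those groups were apart at both times (0.68, SE 0.14), although the adjusted p was 0.0193 with the block. Apob (-3.14) and Mttp (-3.04) were lower in the same lomustine arrays, so that members of 1 set of arrays were called in opposite directions.

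The remaining members varied less with all arrays included. Over all combinations Apoe, the remnant ligand, changed by -0.60 to 0.10, the lowest value being that with gemfibrozil, which was -0.74 and called (limma adjusted p = 0.00101) without the array that stood apart, Apoh by -0.49 to 0.24 and Apoa4 by -0.49 to 0.52. The highest Apoa4 change was with dexamethasone, a glucocorticoid, at 456 µM, where it read 13.22, 13.28 and 13.50 at 0.67 d and 13.32, 13.42 and 13.48 at 1 d, against 12.79 to 12.94 and 12.66 to 12.99 with vehicle. The groups were apart at both times, and the change of 0.52 (SE 0.07, limma adjusted p = 2.14e-05) was under the 1.5-fold bound. So were those of Apoa5 (0.56, SE 0.07, limma adjusted p = 1.83e-05) and Apoa1 (0.48, SE 0.10, limma adjusted p = 0.00174) with dexamethasone.

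Decreases of the other 8 members were found mainly in combinations that also lowered Apob and Mttp. At least 1 of the 8 was called lower in 31 combinations, and in 30 of these Apob or Mttp was lower as well. The exception was 3-methylcholanthrene, an aryl hydrocarbon receptor agonist, at 23 µM, where Apoa5 changed by -0.67. That call was lost with hybridization day as a block (-0.51, limma adjusted p = 0.0205). What share of the lower calls of all genes fell in combinations that lowered Apob or Mttp was not counted. The 30 of 31 is therefore a count only and not read as a link between the members. No member was lower in 48 combinations, 1 in 8, 2 in 42, 3 in 13 and 4 or more in the others. Vinblastine lowered 7 members, of which Apoa2, Apoc3 and Apom lost their call with hybridization day as a block, doxepin and ethinylestradiol, an estrogen, 6 each, and gemfibrozil, tacrolimus, carvedilol, itraconazole and labetalol 5 each. In the vinblastine comparison 17.1% of all genes were lower and 8 of the 11 hepatocyte markers were called lower (their median change was -1.13), in that of doxepin 7.63% of genes and 6 of 11 markers (-0.60), and in that of ethinylestradiol 8.72% of genes and 6 of 11 markers (-0.83). With gemfibrozil 12.3% of genes and 4 of 11 markers were lower, with tacrolimus 10.6% and 5, and with carvedilol 7.23% and 3. With itraconazole 7.47% of genes and 6 of 11 markers were lower, and with labetalol 8.26% and 5. The part of this wider loss in the members' decreases was not tested. With the compounds that raised 2 members, the median marker change was 0.02 for fenofibrate, 0.01 for valproic acid and 0.06 for cytochalasin B.

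Apoa1, Apoc3, Apoa4 and Apoa5 neighbour each other on rat chromosome 8 (GRCr8), and their calls were compared on that account. Any of the 4 was lower in 21 combinations, at least 2 were lower in 6 and at least 3 in 1, and Apoa1 and Apoa5 were lower together in 4 of the 14 combinations that lowered Apoa5 and the 11 that lowered Apoa1. Those 4 were vinblastine, isotretinoin, tacrolimus and cyclosporin A, where 17.1%, 11.8%, 10.6% and 8.19% of all genes were lower. Genes that are not neighbours were not counted in this way. These are therefore counts only and not read as a result about neighbouring genes. Doxofylline, which raised Apoa5, was called for none of the 3 neighbours.

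Likeness of the changes over the combinations of campaigns 1 to 3 was measured by Pearson's r across all genes, as a description of points that share control arrays. Apob was most like C5, complement component 5 (r = 0.94), and then Mttp (0.93), and Mttp was most like Apob and then C5 (0.90). Apoa2, Apoc3 and Apom were each close to Apoc2, the lipoprotein lipase cofactor (r = 0.93, 0.93 and 0.94), and Apoa2 and Apom to each other (0.91). Apoh was most like Pon1, the HDL-bound paraoxonase (0.93), Apoe like Dpt (0.88), Apoa1 like Hp, haptoglobin (0.82), Apoa5 like Furin (0.65) and Apoa4 like Gpt (0.52). With the median change of the hepatocyte markers r was 0.81 for Apob, 0.76 for Apoc3, 0.72 for Mttp, 0.71 for Apoa1, 0.70 for Apom, 0.68 for Apoa2, 0.65 for Apoh and 0.51 for Apoe, and lower for Apoa5 (0.38) and Apoa4 (0.15).

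Compounds known to act on lipid metabolism were examined whatever their values. Of the 3 fibrates, fenofibrate at 250 µM raised Apob and Mttp, clofibrate at 500 µM was called for no member (Mttp 0.37, SE 0.30; Apob -0.37, SE 0.36), and gemfibrozil at 2000 µM lowered Mttp (-2.33, SE 0.52), Apob (-2.21, SE 0.50), Apom (-1.11), Apoa1 (-0.79) and Apoa2 (-0.76). Over all genes 1.63% were higher and 0.274% lower with fenofibrate, 0.106% and 0% with clofibrate, and 10.7% and 12.3% with gemfibrozil. The doses differed as well, and the fibrates are therefore set side by side only. Both clofibrate and gemfibrozil hold an array that stood apart. Mttp in clofibrate arrays at 0.67 d read 6.38, 9.33 and 10.41, the first of these being replicate 1, against 8.00 to 9.15 with vehicle, and in gemfibrozil arrays at 1 d it read 5.29, 6.95 and 9.86, the last being replicate 1. These 2 arrays were doubted for their values, so that calls made without them partly follow from that choice. Without these 2 arrays Mttp rose by 0.92 with clofibrate (limma adjusted p = 0.00461), the Apob change with clofibrate was 0.37, not called, and with gemfibrozil Mttp was at -2.94 and Apob at -2.75, with Apoa5 (-1.19, adjusted p = 0.00224) and Apoe (-0.74, adjusted p = 0.00101) called as well. With hybridization day as a block no gemfibrozil decrease was called (Mttp -1.56, adjusted p = 0.17; Apob -1.36, adjusted p = 0.165), nor was that of Mttp (-1.87) or Apob (-1.78) without replicate 2.

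**Figure D4:**
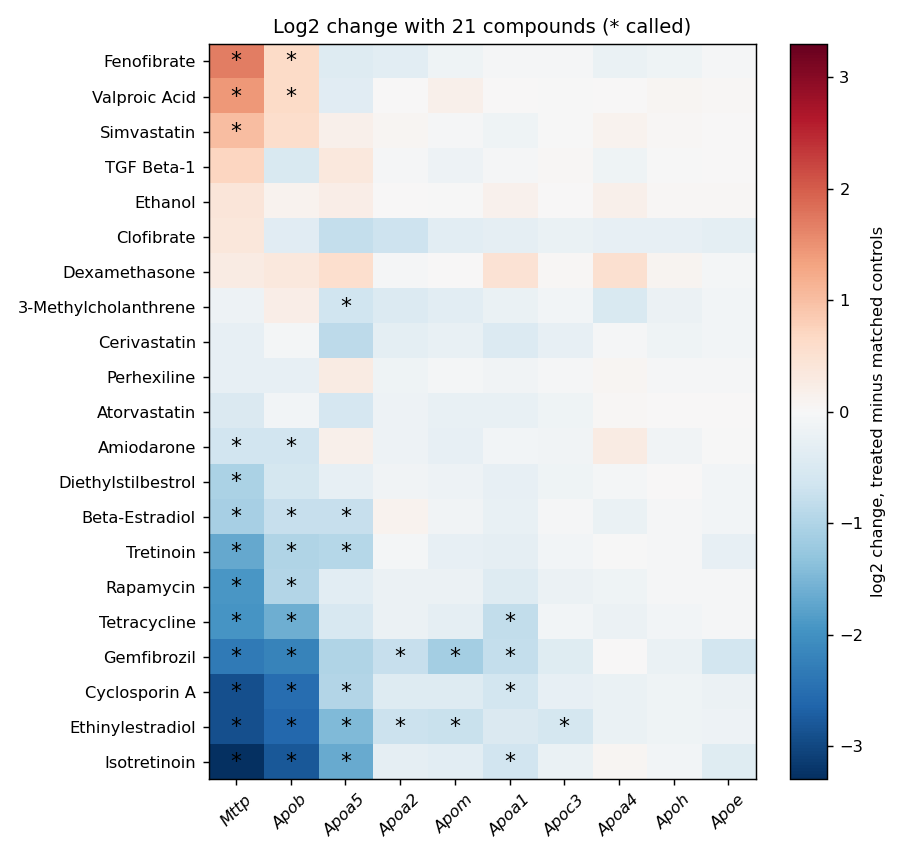
Log2 change of the 10 members (columns) with the compounds known to act on lipid metabolism (rows), on a diverging colour scale centred at 0, with called values marked. Fenofibrate, valproic acid and simvastatin show increases of Mttp (1.68, 1.42 and 1.03), while isotretinoin, ethinylestradiol and cyclosporin A show decreases (-3.28, -2.91 and -2.89).

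Among the statins, which inhibit cholesterol synthesis, simvastatin raised Mttp (1.03) and had an Apob change of 0.57 (SE 0.08, limma adjusted p = 3.96e-05) just under the fold bound, while atorvastatin (Mttp -0.47) and cerivastatin (Mttp -0.27), both at 250 µM, were called for no member. The doses of simvastatin and the other 2 differed, and the compounds are therefore set side by side only. Over all genes 2.73% were lower and 2.76% higher with simvastatin, 3.45% and 2.36% with atorvastatin, and 3.26% and 2.92% with cerivastatin. The 2 retinoids lowered Mttp, Apob and Apoa5: isotretinoin at 500 µM with changes of -3.28, -2.80 and -1.67 and tretinoin at 156 µM with changes of -1.70, -0.98 and -0.93. Over all genes 11.8% were lower and 9.32% higher with isotretinoin, and 4.81% and 2.73% with tretinoin. Estrogens also lowered Mttp (ethinylestradiol -2.91, beta-estradiol -1.09, diethylstilbestrol -1.04). Ethinylestradiol and beta-estradiol lowered Apob (-2.60 and -0.76) and Apoa5 (-1.46 and -0.75) as well. With diethylstilbestrol Apob (-0.57) and Apoa5 (-0.28) were not called. Over all genes 8.72% were lower and 10.5% higher with ethinylestradiol, 5.75% and 6.01% with beta-estradiol, and 4.35% and 3.75% with diethylstilbestrol. Mttp and Apob were called lower with 79 and 72 of all combinations, so that their decreases were not particular to retinoids or estrogens. The calls of Apob and Mttp with beta-estradiol were lost with hybridization day as a block and without replicate 1 or 3.

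Of compounds linked to hepatic fat accumulation, tetracycline lowered Mttp (-1.94), Apob (-1.61) and Apoa1 (-0.81), amiodarone gave small decreases of Mttp (-0.64, not called without any 1 replicate) and Apob (-0.63), valproic acid raised both, and ethanol and perhexiline were called for no member. Perhexiline at 12 µM was called for no gene at all, and with ethanol 0.879% of all genes were lower and 1.02% higher. The shares were 5.28% and 2.59% with tetracycline, 2.05% and 1.84% with amiodarone, and 2.98% and 5.54% with valproic acid. The immunosuppressants cyclosporin A (Mttp -2.89, Apob -2.52, Apoa5 -0.97, Apoa1 -0.61) and rapamycin (Mttp -1.91, Apob -0.97) lowered both assembly genes. Over all genes 8.19% were lower with cyclosporin A and 3.24% with rapamycin, and 6.15% and 1.34% higher. TGF Beta-1, a fibrogenic cytokine, at 5 ng/ml was called for no member, with a Mttp change of 0.71 (SE 0.20, limma adjusted p = 0.0113) and an Apob change of -0.51 (SE 0.15, adjusted p = 0.0183).

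Other genes of lipoprotein metabolism were counted over the same combinations. Among 18 genes of VLDL assembly and secretion 8.59% of tests were lower and 4.38% higher (median change 0.00), with Tm6sf2, needed for VLDL lipidation, and Cideb, a lipid droplet protein of VLDL maturation, lower in 55 combinations each and higher in none, and Dgat2, which makes triglyceride, higher in 49 and lower in none. For 10 other apolipoproteins the shares were 8.98% lower and 1.33% higher, with Apon lower in 41 and Apoc2 in 39, and Apoc1 in 3. The 10 receptor and uptake genes were 11.6% lower and 3.91% higher, with Lsr lower in 39, Lrp1 in 31 and Vldlr higher in 26. Among 13 lipase and HDL remodelling genes 7.33% were lower and 5.17% higher, with Lcat, which esterifies HDL cholesterol, lower in 50 and Abca1, which exports cholesterol to Apoa1, higher in 32. The 22 transcriptional regulators were 11.6% lower and 6.92% higher: Onecut1 was lower in 56, Nr5a2 in 53, Nr2f2 in 52 and Hnf4a, a nuclear receptor known to bind the promoters of several of these apolipoproteins, in 51, while Cebpb was higher in 56 and Ppara, the fibrate receptor, was higher in 9 and lower in 1. The hepatocyte markers were lower in 17.3% and higher in 1.78% of tests, close to the 16.5% and 1.02% of the members, with a median change of -0.09 beside -0.10, and Hnf4a is counted in both lists. Of the markers of other cells, the enterocyte list was lower in 32.2% of tests, with Fabp2 lower in 77 combinations and Vil1 in 76, and the endothelial, stellate, Kupffer cell and cholangiocyte lists in 13.3%, 9.49%, 6.74% and 3.91%; the part of these in the members' decreases was not tested.

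With the 2 exposure times fitted separately, Mttp was lower in 64 combinations at 0.67 d and 60 at 1 d, 55 of them shared, and Apob in 64 and 53, 50 of them shared (background 3.32% lower and 2.65% higher at 0.67 d, 3.79% and 3.08% at 1 d). Median changes at 0.67 and 1 d were -1.18 and -1.02 for Mttp and -1.01 and -0.70 for Apob. For Apom the counts were 6 at 0.67 d and 16 at 1 d, and for Apoc3 1 and 7. Whether a change differed between the times was tested by the interaction of treatment and time. It called 1 of the 1280 tests, with 70 at an unadjusted p under 0.05. Over all genes 0.00725% of tests were called with a more positive log2 change at 1 d than at 0.67 d and 0.0177% with a more negative one. The 1 call was Apob with venlafaxine, a serotonin and noradrenaline reuptake inhibitor, at 1481 µM. Venlafaxine arrays read 10.35, 10.46 and 10.50 at 0.67 d and 9.40, 9.40 and 9.46 at 1 d, against 12.09 to 12.46 and 12.09 to 12.57 with vehicle. Both groups of treated arrays lay below all controls, with changes of -1.86 (SE 0.09) at 0.67 d and -2.95 (SE 0.11) at 1 d, and a difference of -1.09 (SE 0.14, limma adjusted p = 0.00158). It was not called with the array median subtracted, with genes taken as the median of their probe sets, or without replicate 1, 2 or 3.

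Time in culture alone was compared in the 104 vehicle arrays, with culture day as a block. No member was called (background 0.387% higher and 0.281% lower at 1 d), though 7 of the 10 had an adjusted p of 0.01 or less and 9 an unadjusted p under 0.05. Apoa2 (-0.30), Apoa5 (-0.27), Apom (-0.19), Apoa4 (-0.16), Apoh (-0.13) and Apoc3 (-0.09) were lower at 1 d than at 0.67 d and Mttp was higher (0.23, SE 0.04, limma adjusted p = 8.78e-07), all under 1.5-fold. Apob differed by 0.05 (SE 0.03, adjusted p = 0.179).

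Dose was examined with the 6 compounds of campaign 5, by the slope over 3 doses at 1 d. No slope of the 60 was called (background 0.00117% higher and 0% lower with dose), and 2 had an unadjusted p under 0.05. Clofibrate gave Mttp readings of 10.03, 10.36 and 10.42 at 125 µM, 10.37, 10.54 and 10.99 at 250 µM and 10.42, 10.77 and 11.12 at 500 µM, against 9.45, 9.53 and 9.65 with vehicle. All 9 treated arrays lay above the 3 controls, and the differences of 0.72, 1.09 and 1.23 were not called (limma adjusted p at the highest dose = 0.0333), while with replicate number as a block those at 125 µM (adjusted p = 0.00265) and 500 µM (0.00153) were called and that at 250 µM (0.0109) was not. Omeprazole, a proton pump inhibitor, gave Apob differences of -0.22, -0.35 and -0.48 and Mttp differences of -0.40, -0.61 and -0.73 at 365, 400 and 435 µM, none of them called. With the block Mttp was called at 400 µM (limma adjusted p = 0.00899) and 435 µM (0.00137), where 12.6% and 15.3% of all genes were called.

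**Figure D5:**
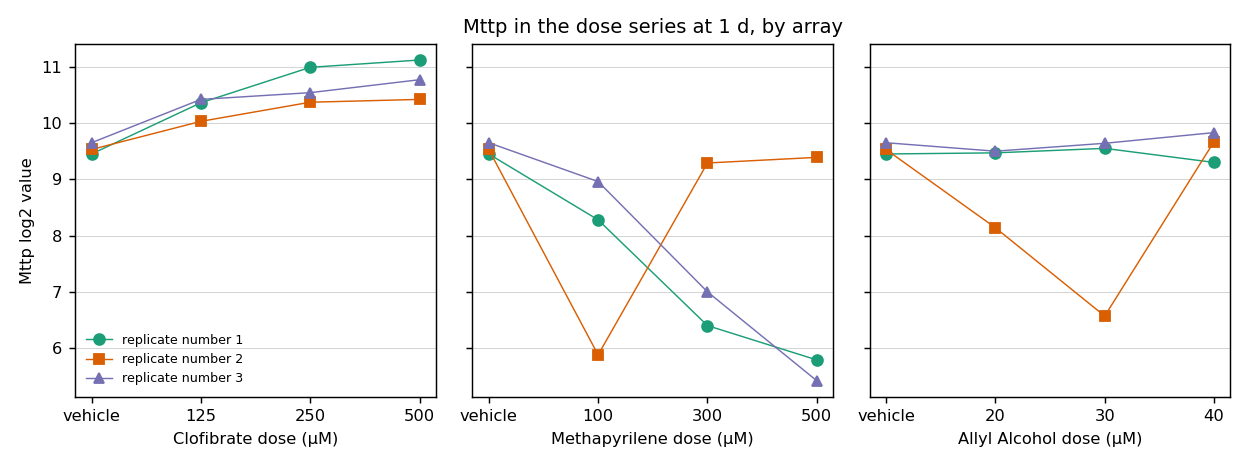
Log2 signal of Mttp in single arrays (y axis) by dose in µM (x axis, evenly spaced steps with vehicle at the left) for clofibrate, methapyrilene and allyl alcohol of campaign 5 at 1 d, with lines joining arrays of the same replicate number and squares for replicate 2. With methapyrilene, replicate 2 read 5.88, 9.29 and 9.39 at 100, 300 and 500 µM, while replicates 1 and 3 were lower at each higher dose.

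Methapyrilene, a hepatotoxic antihistamine, showed the largest differences of that campaign and the clearest conflict with the labels. Replicates 1 and 3 of Mttp read 8.28 and 8.96 at 100 µM, 6.40 and 7.00 at 300 µM and 5.79 and 5.42 at 500 µM, while replicate 2 read 5.88, 9.29 and 9.39, against 9.45, 9.53 and 9.65 with vehicle. Apob had the same pattern, with 11.54 and 11.55, 9.66 and 9.94, and 9.35 and 8.50 in replicates 1 and 3, and 8.90, 12.30 and 12.24 in replicate 2, against 12.27 to 12.47 with vehicle. Replicate 2 of allyl alcohol also stood apart at 20 and 30 µM (Mttp 8.14 and 6.57, against 9.45 to 9.65 with vehicle), where replicates 1 and 3 read 9.47 to 9.64. Without replicate 2, an alternative chosen after these values were seen, the slopes of Mttp (-1.51 per dose step, SE 0.16, limma adjusted p = 0.00434) and Apob (-1.31, SE 0.16, adjusted p = 0.00487) with methapyrilene were called.

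Set against their own controls, the later campaigns had 0 calls in 190 member tests (background 0.583% higher and 0.689% lower), with 27 at an unadjusted p under 0.05. With replicate number as a block, which in campaign 5 follows the hybridization day, there were 4, the Mttp calls with clofibrate and omeprazole given above (background 1.07% higher and 1.27% lower). Without replicate 2 of campaign 5 there were 4, all with methapyrilene: Mttp -2.85 and Apob -2.56 at 300 µM and Mttp -3.95 and Apob -3.44 at 500 µM (background 0.843% higher and 1.05% lower over the campaign). In those 2 comparisons 5.06% and 13.5% of all genes were called, against 0% at either dose with the block and replicate 2 included. For the 7 compounds that were run again at the same dose and time, the change in the later campaign was compared with that in campaign 1, and none of 70 member tests was called (background 0% in either direction), with 1 at an unadjusted p under 0.05 (Apob with omeprazole). Chlorpromazine at 43.9 µM gave an Apob change of -0.93 and a Mttp change of -1.04 in campaign 4, against -0.93 and -1.19 in campaign 1. Methapyrilene at 300 µM gave Mttp changes of -1.98 in campaign 5, replicate 2 included, and -2.79 in campaign 1 (difference 0.81, SE 0.76), and clofibrate Mttp changes of 1.23 and 0.74 (difference 0.49, SE 0.31).

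Related compounds were compared at equal doses in 4 pairs: the anthracyclines doxorubicin, daunorubicin and idarubicin (1.5 µM) among themselves, and azathioprine with 6-mercaptopurine (0.5 µM). Doxorubicin carries a hydroxyl group that daunorubicin lacks, idarubicin lacks the methoxy group of daunorubicin, and azathioprine is 6-mercaptopurine with a nitroimidazole group on its sulfur. None of 40 member tests was called with p-values adjusted over all genes and pairs (background 0.876% higher and 1.06% lower), and 2 had an unadjusted p under 0.05. The largest difference was that of Mttp between doxorubicin and daunorubicin (0.54, 95% interval 0.11 to 0.96, limma adjusted p = 0.145), and Apob differed by 0.42 (0.02 to 0.82). For idarubicin against daunorubicin the differences were 0.51 (-0.01 to 1.02) in Mttp and -0.04 (-0.53 to 0.46) in Apob, for idarubicin against doxorubicin -0.03 (-0.56 to 0.49) and -0.46 (-0.94 to 0.03), and for azathioprine against 6-mercaptopurine 0.02 (-0.42 to 0.46) and 0.15 (-0.12 to 0.42). Without replicate 2, Mttp was called between doxorubicin and daunorubicin (0.93, adjusted p = 0.00459) and between idarubicin and daunorubicin (1.20, adjusted p = 7.73e-05), and without replicate 1 Apob between idarubicin and doxorubicin (-1.23, adjusted p = 0.000913).

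Apob and Apoe were each measured by a second probe set. That of Apob read 6.50 in vehicle arrays, with a median difference of -0.17 over those combinations and a range of -0.80 to 0.61, and no difference reached 2-fold lower. Its r with the chosen Apob probe set was 0.65, so that the size of the Apob changes rests on 1 probe set. The second Apoe probe set read 4.33 and had an r of 0.20 with the first.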

How the data were processed

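RNA of cultured primary rat hepatocytes was hybridized to an Affymetrix rat expression array, and the deposited values are log2 signals per probe set, made by the authors with robust multi-array averaging (RMA) per the labels. The study's methods describe its frozen form (R packages frma and frmaTools), in which probe effects are estimated beforehand on arrays drawn at random from the same resource, and which form gave the deposited values is not stated. A genome build is not given in the sources used here, and all 939 columns were used. Of 31099 probe sets, 20832 had 1 gene symbol in the platform annotation and stood for 14218 genes, the probe set with the highest mean being kept for each gene. Depth does not apply to arrays; the number of arrays limits the precision.

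Treated arrays were compared with the vehicle controls of the same campaign whose description names the compound, by limma 3.58.1 in R 4.3.3 (treatment and exposure time as factors, Benjamini-Hochberg over 14218 genes, adjusted p of 0.01 or less and 1.5-fold or more). The treatment-by-time interaction, time in culture, repeat campaigns and matched-dose pairs used the same bounds, and dose slopes, over doses scored -1, 0 and 1, an adjusted p of 0.05. In campaign 5 replicate numbers followed hybridization days for 55 of 57 arrays, and same-numbered arrays of different groups deviated together (correlation above 0.1) in 483 of 513 pairs, and in all 234 pairs without methapyrilene and allyl alcohol, so that the numbers were taken as pairing these arrays and values with them as a block are given as well. The scripts were tested on simulated data. Arrays were summarised with Python 3.11.15.

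The members and gene lists were chosen with earlier results of these data known. Named were, for each member, the compounds with the 3 largest called rises and the 3 largest called falls, the compounds with most members called, and compounds known to act on lipid metabolism whatever their values. Alternatives covered the fold bound, scaling, probe set summary, choice of controls, exposure time, replicates, replicate number as a block, hybridization and extraction day, low signals and doubted arrays.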

Additional observations from a re-analysis of the deposited data

Results flagged for a closer look

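In groups of 4 to 10 arrays, 16 of 140 group and member combinations (11.4%) held an array far from the others by Dixon's criterion, where chance gives about 1 in 20. Of these, 4 came from 1 array, replicate 5 of chlorpromazine in campaign 4, which was the lowest of 6 in Apoa4 (11.61, next 12.72), Apoc3 (12.23, next 12.98), Apoe (12.81, next 13.51) and Apoh (11.45, next 12.59). In the vehicle arrays of that campaign the lowest of 6 stood apart in Apoa1 (12.47, next 12.75) and Apoe (13.21, next 13.67). Without the chlorpromazine array the comparison of repeat experiments still had 0 calls.

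Among the vehicle sets of campaign 1, replicate 8 of one set was the lowest of 8 in Apoc3 (13.18 at 0.67 d and 13.10 at 1 d) and in Apoh at 0.67 d (12.87). In another set replicate 3 was the lowest of 5 in Apoa4 at both times (12.38 and 12.23). Single vehicle arrays stood high in Apob (12.97, next 12.34) and Apoa4 (13.14, next 12.69), and low in Apob (11.37, next 12.13), Apom (9.62, next 10.02) and Apoa5 (8.52, next 9.14). The change of Apob with venlafaxine differed between the exposure times by -1.09 in the interaction test.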

How the results depend on the processing

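The 211 lower calls of the members were between 150 and 234 under the alternatives other than a 2-fold bound, which left 136, and between 186 and 192 without 1 replicate. The 13 higher calls became 5 with the 2-fold bound, 20 with the array median subtracted, 20 with all controls of the campaign and 6 with the 0.67 d arrays alone, and were between 11 and 17 without 1 replicate. With replicate number as a block there were 13 higher and 214 lower calls. In campaigns 1 to 3 the numbers are shared, and same-numbered arrays deviated together in all pairs in 111 of 180 groups checked (mean correlation 0.30).

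The 1 treatment-by-time call became 0 with the array median subtracted, 0 with the median of probe sets and 3 with the replicate block, and was between 0 and 1 without 1 replicate; without replicate 2 the call was another one, Apob with ifosfamide (-0.77). Dose slope calls were between 0 and 2, and matched-dose calls between 0 and 2, without 1 replicate, and 0 under the other alternatives. The later campaigns had 4 calls without replicate 2 and 4 others with the replicate block, both added after the data were seen. Repeat and time-in-culture comparisons had 0 calls under all alternatives run.

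Of 92 named and called values, 36 were called under all 18 alternatives, 68 with hybridization day as a fixed block, 77 with extraction day as one, 83 with the replicate block and 51 with the 2-fold bound. Without 1 replicate, calls were also lost for Mttp with sulindac (0.46 without replicate 1), Apoc3 with ethinylestradiol (-0.55 without replicate 1) and with vinblastine (-0.42 without replicate 3), and Apoa2 with cisplatin (0.42 without replicate 2). No called value changed sign. The causes were not tested. Groups of 3 arrays, 3 shared controls in campaign 5 and undated cultures of treated arrays limit precision.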
